A study of Mus musculus with 4 samples.

Results

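The retinoblastoma-type pocket proteins and the MuvB core of the DREAM complex were measured in cultured satellite cells, the stem cells of muscle (MuSC), with and without Prmt5, an arginine methyltransferase that modifies histones and other proteins. They were represented by 9 genes chosen by name: the 3 pocket proteins Rb1, Rbl1 and Rbl2, 4 MuvB subunits (Lin9, Lin37, Lin52 and Lin54), and the activators Mybl2 and Foxm1. The MuvB subunit Rbbp4 was read among the DREAM partners instead. All 9 were among the 20065 genes of the deposited table and among the 16212 genes that had a mean normalized count of at least 5 and were tested. RNA-seq was available for 2 control and 2 Prmt5sKO libraries of cultured satellite cells from limb and trunk muscles of adult C57BL/6 mice. Control cells were Pax7CreERT2/Prmt5+/loxP and Prmt5sKO cells were Pax7CreERT2/Prmt5loxP/loxP, and both groups had been given TAM. The tamoxifen-dependent Cre therefore acted in both groups under the Pax7 gene, which marks satellite cells. Controls carried an intact copy of Prmt5 beside a floxed copy that this Cre can delete, so both copies need not have been working there. The study's methods describe sorting of the cells before culture and 4-OH-TAM added to the cultures to delete Prmt5 there. The paper states that its RNA-seq was done on MuSC of both groups treated in this way. The sample titles call the control libraries WT. How many animals went into a library is not given in the sources used here. The p-values therefore measure only the spread between these libraries, and how far that is a spread between animals is not known.

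Pocket proteins bind E2F transcription factors and hold genes of the cell cycle silent until cyclin-dependent kinases phosphorylate them. In cells that do not divide, p130 or p107, encoded by Rbl2 and Rbl1, joins E2F4, a DP partner and the MuvB core to form DREAM, which represses genes of both the G1/S and the G2/M transition. When cells re-enter the cycle MuvB leaves the pocket protein and binds B-Myb, encoded by Mybl2, and later FoxM1, and the same core then activates genes of mitosis. In the muscle lineage, Rb1 is known for keeping differentiated cells out of the cycle.

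The whole reads of each library were recovered from the deposited group means, and since the columns carry no replicate numbers the libraries of a group are called deeper and shallower. The libraries held 13240754 to 20047430 reads, and values below are counts scaled by TMM (a trimmed mean that sets libraries to a common size). Prmt5, the deleted gene, was at 2273 and 2906 in controls against 244 and 202 in Prmt5sKO, and here and below the deeper library of a group is given first. All 8 markers of satellite cells and myoblasts were present, with sums of 45022 to 52982 in control and 46250 to 76597 in Prmt5sKO libraries. The summed markers of endothelial cells, leukocytes, fibro-adipogenic cells and Schwann cells reached at most 187 in any library, no listed marker in the table was at 0 in all libraries, and Ptprc was not in the table. The endothelial sum was 111 and 136 in controls against 47.4 and 27.2 in Prmt5sKO, and the leukocyte sum, mostly Cd68, was 104 and 112 against 58.5 and 72.4. The 10 muscle differentiation markers summed to 10547 and 6222 in controls and to 16991 and 241274 in Prmt5sKO, so that the shallower Prmt5sKO library stood apart. Xist, which is expressed from an inactive X chromosome, was 8668 and 23.3 in controls against 8.15 and 5655 in Prmt5sKO, so that the libraries of a group differed in it as well. The part of differentiation, of the other cell types and of Xist in the results below was not tested. In these bulk libraries, fewer cells of a type and less RNA per cell cannot be told apart.

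Among the 9 genes, Rb1, Rbl2 and Lin52 were higher in each Prmt5sKO library than in any control, and Rbl1, Lin9, Lin54, Mybl2 and Foxm1 were lower in both. Only Lin37 overlapped between the groups. Thus 8 of the 9 did not overlap, whereas 48.8% of all genes tested did not. An unadjusted limma-voom p under 0.05 was reached by 7 of the 9, with Lin37 and Lin52 the others, against 13% of all genes. Of the 7, 2 were higher and 5 lower, beside 6.01% and 6.95% of all genes. The 7 became 3 (Rb1, Mybl2 and Foxm1) without the shallower control library, 4 without the deeper one, 5 without the deeper or without the shallower Prmt5sKO library, and 5 with scaling by library size alone. With Benjamini-Hochberg adjustment over all genes, limma-voom called 0 of 16212 genes (0%) at a threshold of 0.05, the smallest adjusted p being 0.193. Before adjustment 2101 genes had a p under 0.05, and limma-trend also called 0 genes after adjustment. The count of calls was also 0 without the deeper or the shallower control library, with smallest adjusted p-values of 0.362 and 0.969 in limma-voom. By contrast, 496 genes were called without the deeper Prmt5sKO library and 99 without the shallower one, in fits in which the remaining library was assumed to vary like the control group. An exact permutation test of 2 against 2 libraries could not have passed the threshold for any single gene.

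**Figure D1:**
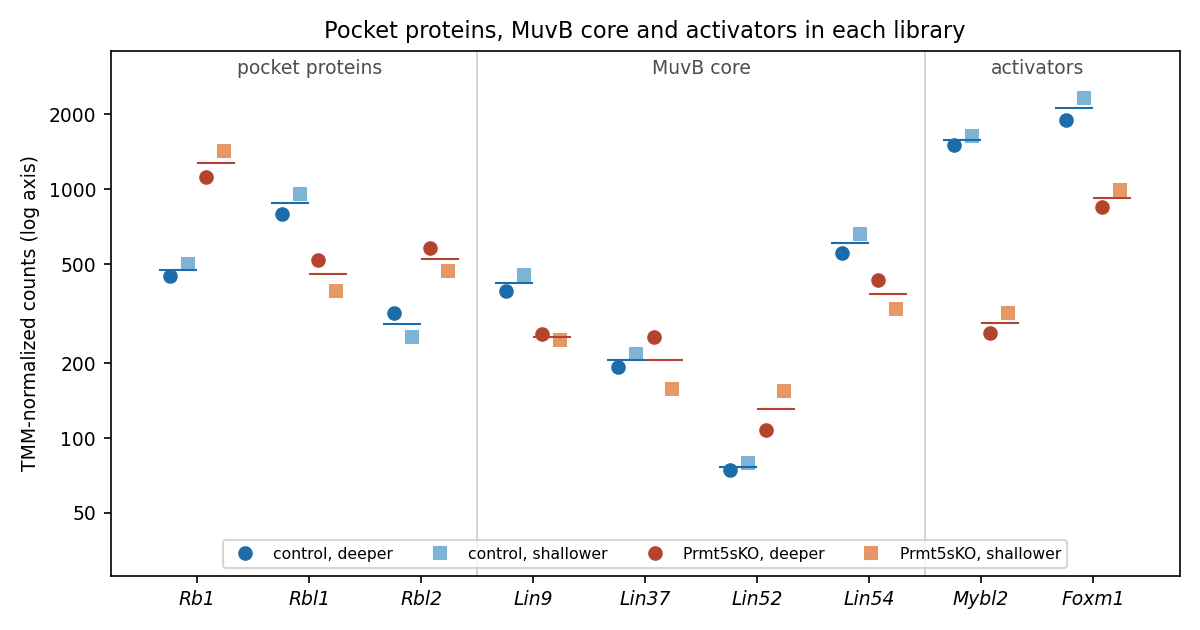
TMM-normalized counts (log axis) of the 9 genes in each library, with circles for the deeper and squares for the shallower library of a group, blue for control and red or orange for Prmt5sKO, and lines for group means. Rb1, Rbl2 and Lin52 stand higher and Rbl1, Lin9, Lin54, Mybl2 and Foxm1 lower in both Prmt5sKO libraries, and Lin37 overlaps.

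Promoter sequence was looked at first, because pocket proteins and several of the genes that they repress are themselves under E2F control. RefSeq promoter windows (GRCm38.p6, 250 bases before to 50 bases after a start) were at hand for 6 of the 9 genes, with 7 windows in all since Lin54 has a pair of starts. Positions are counted from the RefSeq start, which need not be the outermost start in GENCODE that the gene spans below use. They agree for Rbl1 and Rbl2, the RefSeq start of Mybl2 lies 52 bases before the GENCODE start, and those of Lin52 and Lin37 lie 86 and 192 bases inside the GENCODE gene, so that the stretches shown for these last are within annotated exons. They were searched on both strands for an 8-letter E2F site (TTTCCCGC, TTTCGCGC, TTTGCCGC or TTTGGCGC), for a 7-letter E2F core (GGCGGGA) and for the cell cycle genes homology region, CHR (TTTGAA), to which LIN54 binds. The core overlaps the first form of the 8-letter site by 6 letters when both read the same stretch, as they do in Lin52. The stretches that carry the sites near the start, with matched letters in capitals, are given here for genes that were lower (Rbl1, Mybl2), higher (Rbl2, Lin52) and overlapping (Lin37) in Prmt5sKO. They are 110 bases that end just before the start for Rbl1 (chr2:157204535-157204644, minus strand), Rbl2 (chr8:91069947-91070056, plus strand) and Mybl2 (chr2:163054525-163054634, plus strand), and 30 bases around the site for Lin52 (chr12:84451472-84451501, plus strand) and Lin37 (chr7:30559644-30559673, minus strand), all 5′ to 3′ in the direction of the gene.
Rbl1: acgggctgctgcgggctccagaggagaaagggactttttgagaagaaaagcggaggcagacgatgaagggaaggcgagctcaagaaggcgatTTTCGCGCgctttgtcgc
Mybl2: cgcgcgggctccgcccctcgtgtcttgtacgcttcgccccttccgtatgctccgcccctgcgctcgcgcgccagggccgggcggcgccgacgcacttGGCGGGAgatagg
Rbl2: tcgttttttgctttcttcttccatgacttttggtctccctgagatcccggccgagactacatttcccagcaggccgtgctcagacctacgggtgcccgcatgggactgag
Lin52: gatcctcgcTTTCCCGCCgacggttggtta
Lin37: ttgccaaagggTCCCGCCtacagaagggga

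Rbl1 held the 8-letter site TTTCGCGC from 18 to 11 bases before its start. Mybl2 held the core GGCGGGA from 13 to 7 bases before its start, and Lin37 held it on the other strand from 16 to 10 bases before its inner RefSeq start. Lin52 held TTTCCCGC from 27 to 20 bases before its inner RefSeq start, with the core on the other strand over 6 of the same bases and once more further upstream. In Rbl2 neither E2F form was found in the window, and a CHR lay on the other strand from 201 to 196 bases before the start, outside the stretch shown. Among the 7 windows, 2 held the 8-letter site, which 2.26% of all 32851 RefSeq windows held. The core was in 4 of the 7 windows and in 11.3% of all windows, and the CHR was in 4 of 7 and in 17.9% of all. Rbl1, which was lower, and Lin52, which was higher, both had the 8-letter site. The core was in Mybl2 and in a window of Lin54, which were lower, in Lin52, and in Lin37, which overlapped. Rbl2, which was higher, had neither form. Whether direction goes with the sites was not tested in so few genes. A match of letters describes the sequence and is not evidence of binding.

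**Figure D2:**
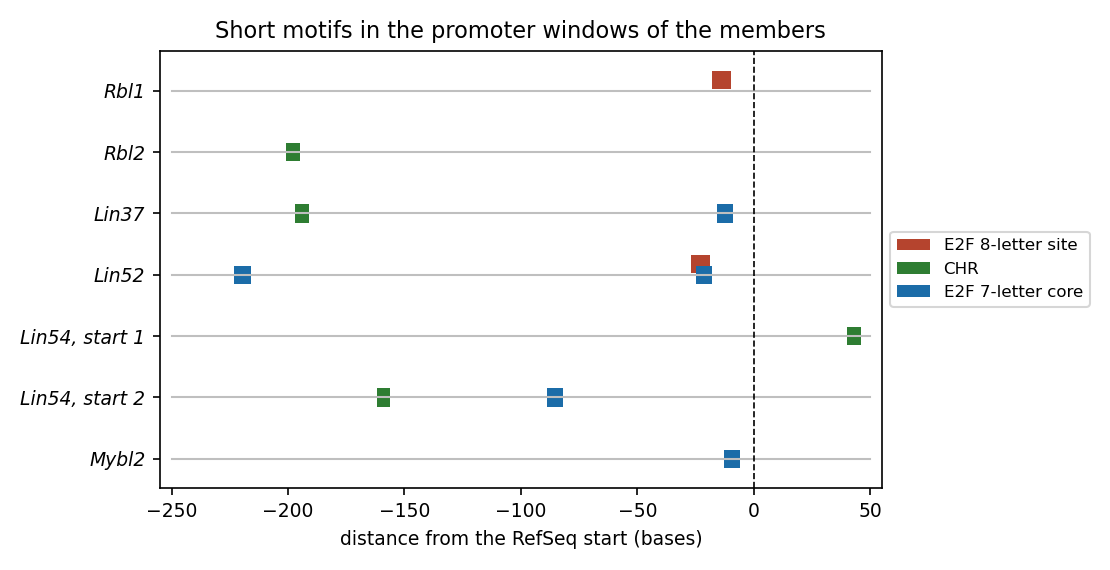
Positions of the motifs in the RefSeq promoter windows of 6 of the genes, as distance in bases from the start (dashed line); red is the 8-letter E2F site, blue the 7-letter core and green the CHR. An E2F form lies within 27 bases before the RefSeq start in Rbl1, Lin37, Lin52 and Mybl2, for Lin37 and Lin52 inside the GENCODE gene, and Rbl2 shows a CHR only.

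Rb1 (ENSMUSG00000022105, chromosome 14, 73183673 to 73325822, minus strand, GRCm38) encodes the founding pocket protein, which binds the activating E2F factors. It was at 446 and 502 normalized counts in controls against 1118 and 1423 in Prmt5sKO. Both Prmt5sKO libraries were thus above both control libraries, and the gap between the groups exceeded the gap within either. Controls averaged 474 ± 39.3 (SD, n = 2) and Prmt5sKO libraries 1271 ± 216 (SD, n = 2). This gave a log2 fold change of 1.41 (standard error, SE, 0.25, 95% interval 0.81 to 2.02), which is higher than in 92.0% of the genes tested, with a limma-voom adjusted p of 0.208. Without the shallower Prmt5sKO library, which has the high differentiation markers, it was 1.24. Without the deeper Prmt5sKO library it was 1.59, and either fit leaves that group without a replicate. Exons of Rb1 share 8.11% of their bases with Rcbtb2 and 6.78% with Lpar6, both on the opposite strand, and whether reads were counted by strand is not given in the sources used here. Lpar6 was at 181 and 180 in controls against 147 and 128 in Prmt5sKO, and Rcbtb2 overlapped between the groups. The part of reads from the shared stretches in the Rb1 difference was not tested.

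Rbl1 (ENSMUSG00000027641, chromosome 2, 157145893 to 157204534, minus strand) encodes p107, the pocket protein typical of dividing cells. It was at 797 and 957 normalized counts in controls against 520 and 391 in Prmt5sKO. Its direction was opposite to that of Rb1, and again the groups did not overlap. The means were 877 ± 113 (SD, n = 2) and 456 ± 91.2 (SD, n = 2), with a log2 fold change of -0.94 (SE 0.25, 95% interval -1.56 to -0.32) and an adjusted p of 0.276 in limma-voom. Rbl2 (ENSMUSG00000031666, chromosome 8, 91070057 to 91123844, plus strand) encodes p130, the pocket protein that prevails in quiescent and differentiated cells. It was at 319 and 254 normalized counts in controls against 581 and 470 in Prmt5sKO, so that it was higher in both. The means were 286 ± 45.6 (SD, n = 2) and 525 ± 78.6 (SD, n = 2), and the log2 fold change was 0.88 (SE 0.28, 95% interval 0.19 to 1.56, limma-voom adjusted p = 0.319). Exons of Rbl2 share 11.8% of their bases with Gm45464, which was not tested, and 9.17% with Aktip, both on the opposite strand. Aktip was likewise higher in Prmt5sKO, with a log2 fold change of 0.80 (SE 0.25). Reads of these genes could not be told apart in the shared stretch if strand was not used.

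Levels of the 3 pocket proteins were compared within a library after division by the length of their annotated exons, a comparison in which the scaling between libraries plays no part. In the control libraries Rbl1 made up 53.3% and 57.7% of pocket protein transcripts, Rb1 29.8% and 30.1%, and Rbl2 16.9% and 12.2%, deeper first. In the Prmt5sKO libraries Rb1 made up 53.2% and 65.0%, Rbl1 24.8% and 17.9%, and Rbl2 22.0% and 17.1%. Rb1 therefore took the first place that Rbl1 had in control cells, and the ranges of its share did not overlap between the groups. Rbl1 was 3.15 and 4.75 times the level of Rbl2 in the control libraries and 1.13 and 1.05 times in the Prmt5sKO libraries. With the length of the longest coding transcript instead, a choice made after seeing the data, the ratio was 0.907 and 0.844 in the Prmt5sKO libraries, so which of Rbl1 and Rbl2 was higher there depended on the length used. The sum of the 3 genes was 249 and 277 normalized counts per kb in the control and 350 and 364 in the Prmt5sKO libraries. Unlike the shares and ratios, this sum depends on the scaling between libraries, and no other scaling was tried for it.

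**Figure D3:**
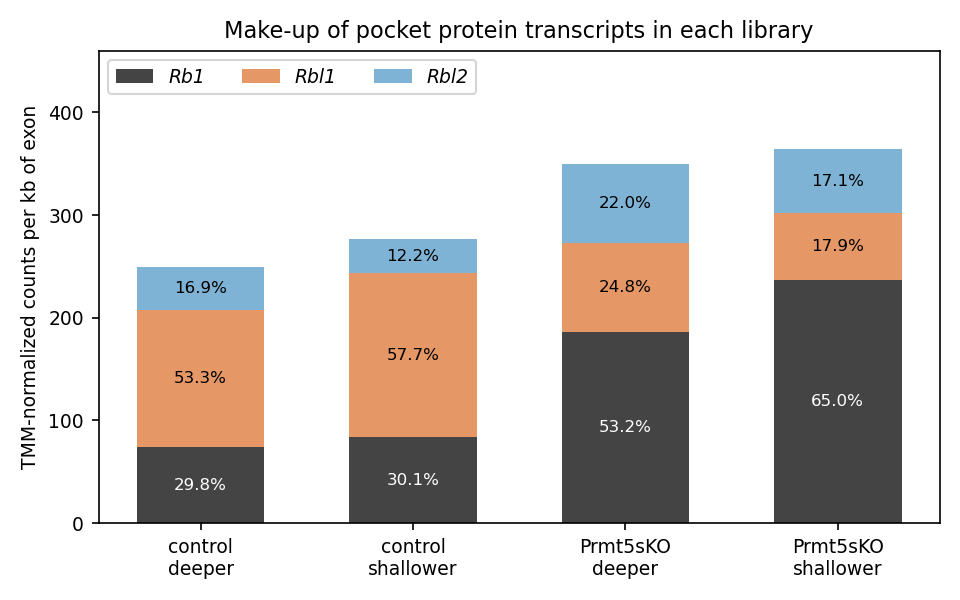
TMM-normalized counts per kb of exon of Rb1 (dark), Rbl1 (orange) and Rbl2 (blue), stacked for each library, with the share of each in percent. Rbl1 is the largest part in both control libraries and Rb1 in both Prmt5sKO libraries.

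The 4 MuvB subunits among the 9 genes differed in direction. Lin9 (ENSMUSG00000058729, chromosome 1, 180641150 to 180690694, plus strand), a subunit needed for activation of mitotic genes with B-Myb, was at 389 and 451 normalized counts in controls against 261 and 247 in Prmt5sKO. Lin9 was lower in both Prmt5sKO libraries, which lay close together. Its log2 fold change was -0.71 (SE 0.26, 95% interval -1.34 to -0.08, limma-voom adjusted p = 0.347). Lin54 (ENSMUSG00000035310, chromosome 5, 100441918 to 100500639, minus strand), the subunit that contacts DNA at CHR sites, was at 555 and 661 in controls against 430 and 331 in Prmt5sKO. It too was lower in both, at a log2 fold change of -0.66 (SE 0.26, 95% interval -1.30 to -0.03, limma-voom adjusted p = 0.369).

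Lin52 (ENSMUSG00000085793, chromosome 12, 84451422 to 84546145, plus strand), the subunit that carries the site through which DYRK1A phosphorylation joins MuvB to p107 or p130, was at 74.6 and 79.1 normalized counts in controls against 107 and 155 in Prmt5sKO. It was higher in both, but the Prmt5sKO libraries differed by more than the gap to the controls. The log2 fold change was 0.71 (SE 0.43, 95% interval -0.33 to 1.75, limma-voom adjusted p = 0.501), and 61 to 154 reads lay behind each value, the fewest among the 9 genes. Lin37 (ENSMUSG00000036845, chromosome 7, 30555441 to 30559838, minus strand), a subunit needed for repression by DREAM, was at 193 and 218 in controls against 255 and 158 in Prmt5sKO. The Prmt5sKO libraries lay on either side of the controls, and the log2 fold change was 0.0068 (SE 0.36, 95% interval -0.88 to 0.89). A difference in either direction of the size seen for Lin9 or Lin52 lies within that interval.

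The activators were the members with the lowest fold changes. Mybl2 (ENSMUSG00000017861, chromosome 2, 163054687 to 163084688, plus strand), which encodes B-Myb, was at 1503 and 1637 normalized counts in controls against 265 and 318 in Prmt5sKO. The groups were far apart and the libraries within each were close. The means were 1570 ± 94.5 (SD, n = 2) and 291 ± 37.7 (SD, n = 2). The log2 fold change was -2.45 (SE 0.23, 95% interval -3.02 to -1.87), a 5.45-fold lower level in the fit and in the lowest 1.12% of the genes tested, with an adjusted p of 0.198 in limma-voom. The log2 fold change of Mybl2 was -2.30 without the deeper Prmt5sKO library and -2.57 without the shallower one. Without the deeper control library it was -2.52 and without the shallower one -2.37. Each of these fits leaves a group without a replicate. Foxm1 (ENSMUSG00000001517, chromosome 6, 128362967 to 128376146, plus strand), a forkhead factor that activates genes of mitosis, was at 1903 and 2318 in controls against 848 and 989 in Prmt5sKO. It was lower in both, with means of 2110 ± 293 (SD, n = 2) and 918 ± 99.2 (SD, n = 2). The log2 fold change was -1.20 (SE 0.22, 95% interval -1.74 to -0.66, limma-voom adjusted p = 0.218). Exons of Foxm1 share 2.50% of their bases with Tex52, which had at most 19.5 normalized counts in any library.

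Per kb of annotated exon, Foxm1 and Mybl2 were the most abundant of the 9 in control cells, with 367 ± 50.9 and 339 ± 20.4 normalized counts per kb (SD, n = 2), and their ranges overlapped. Lin37 and Rbl1 followed at 148 and 146 per kb, also with overlapping ranges, then Lin54 at 104, Rb1 at 78.8, Lin9 at 58.0, Rbl2 at 37.9 and Lin52 at 24.7, each clear of the next. In Prmt5sKO cells Rb1 came first at 211 ± 35.9 per kb (SD, n = 2), followed by Foxm1 at 160 and Lin37 at 149, whose ranges overlapped. Rbl1, Rbl2, Lin54 and Mybl2 lay between 62.9 and 76.0 per kb and could not be ordered, since each overlapped with the next. Lin52 and Lin9 were last at 42.2 and 35.1 per kb. Mybl2 was thus among the first pair in control cells and within this unordered set in Prmt5sKO cells. With the length of the longest coding transcript Rb1 was again first in Prmt5sKO, while Lin9 had the fifth highest mean in control and the seventh in Prmt5sKO, since much of its annotated exon length lies outside that transcript. Set against Lin9 in the same library, Mybl2 was at 6.05 and 5.67 times its level per kb in the control and at 1.59 and 2.01 times in the Prmt5sKO libraries. Foxm1 was at 6.16 and 6.46 times the level of Lin9 in control and at 4.10 and 5.03 times in Prmt5sKO. These ratios depended on the length used. With the longest coding transcript Mybl2 was at 3.35 and 3.14 times the level of Lin9 in controls against 0.878 and 1.11 times in Prmt5sKO, and Foxm1 at 3.33 and 3.49 against 2.21 and 2.71 times, so whether Mybl2 or Lin9 was higher in Prmt5sKO cells was not settled.

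Of 6 genes read as DREAM partners, 5 overlapped between the groups and 1 did not, beside the 48.8% of all genes that did not. Rbbp4, the histone-binding MuvB subunit, the repressor E2Fs E2f4 and E2f5, the DP partner Tfdp2 and the kinase gene Dyrk1a were those that overlapped. Overlap does not show like levels here, since the 95% intervals ran from -0.91 to 0.52 for Rbbp4 and from -0.66 to 1.59 for E2f5. E2f4, the E2F of DREAM, was at 1324 and 1419 normalized counts in controls against 1102 and 1448 in Prmt5sKO, with a log2 fold change of -0.12 (SE 0.23, 95% interval -0.67 to 0.43). Tfdp1, the main DP partner of E2F factors, was at 2188 and 2227 in controls against 1355 and 1431 in Prmt5sKO. It was the partner whose groups did not overlap, at a log2 fold change of -0.66 (SE 0.19, limma-voom adjusted p = 0.295). The 6 partners had a median log2 fold change of -0.04, beside 0.02 over all genes.

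Among 12 genes that set the phosphorylation of pocket proteins, 1 was higher, 3 were lower and 8 overlapped between the groups, so that 4 of 12 did not overlap, beside 48.8% of all genes. Cdk6, a partner of the D-type cyclins, was at 1198 and 1613 normalized counts in controls against 514 and 601 in Prmt5sKO. It was lower in both, at a log2 fold change of -1.33 (SE 0.25, limma-voom adjusted p = 0.222). The related kinase genes Cdk4 and Cdk2 were also lower in both libraries, at -0.45 (SE 0.21) and -0.65 (SE 0.30), both with an unadjusted p over 0.05. The D-type cyclins Ccnd1, Ccnd2 and Ccnd3 overlapped, with log2 fold changes of 0.08, 0.95 and 0.13. For Ccnd2 the controls themselves were far apart at 4371 and 1520. Cdkn1a, which encodes the kinase inhibitor p21, was the gene that was higher, at 3379 and 2057 in controls against 8358 and 15703 in Prmt5sKO. Its log2 fold change was 2.13 (SE 0.38, limma-voom adjusted p = 0.214). It was 2.57 without the deeper Prmt5sKO library and 1.66 without the shallower one, in fits that leave that group without a replicate. The related inhibitors Cdkn1b and Cdkn2c and the catalytic subunits of protein phosphatase PP1, which removes phosphate from pocket proteins, overlapped.

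**Figure D4:**
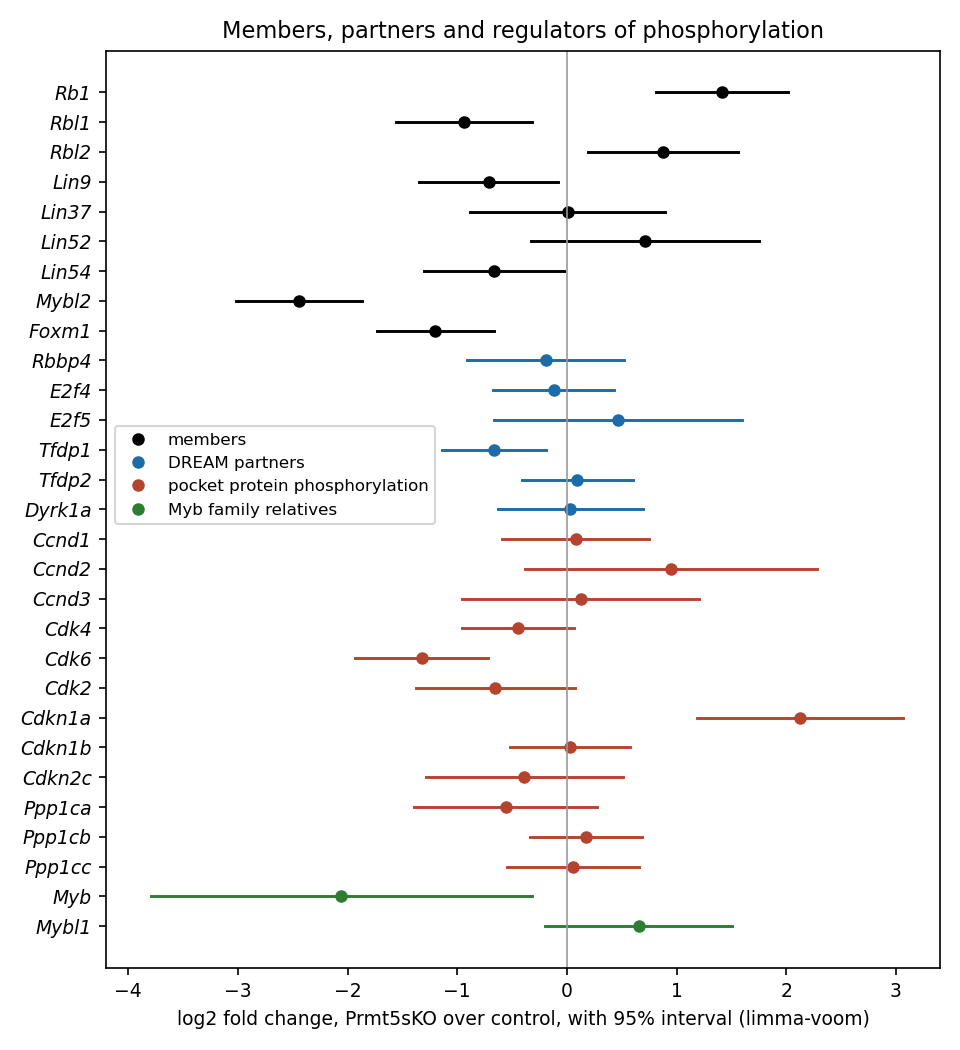
Log2 fold changes of Prmt5sKO over control (points) with 95% intervals from limma-voom (lines) for the 9 genes (black), the DREAM partners (blue), the genes that set pocket protein phosphorylation (red) and the Myb relatives (green). Mybl2, Foxm1 and Cdk6 lie to the left and Rb1 and Cdkn1a to the right of 0 with their whole intervals, while the intervals of E2f4, Lin37 and the D-type cyclins span 0.

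Corepressors that pocket proteins recruit went in both directions. Of 11, 3 were higher (Hdac1, Sin3b and Smarca2), 3 lower (Suv39h1, Smarca4 and Rbbp7) and 5 overlapped, beside 25.2% higher and 23.6% lower among all genes tested, and none had an unadjusted p under 0.05. Smarca2 and Smarca4 are alternative ATPases of the same chromatin remodelling complex. Smarca2 was at 269 and 220 in controls against 418 and 354 in Prmt5sKO, and Smarca4 was 8902 and 8351 against 5104 and 7002. Their log2 fold changes were 0.66 (SE 0.28) and -0.53 (SE 0.24). The relatives of Mybl2 differed in direction. Myb was at 79.1 and 81.7 in controls against 10.4 and 40.2 in Prmt5sKO, whereas Mybl1 was 241 and 224 against 456 and 284. Myb had a log2 fold change of -2.06 (SE 0.71, limma-voom adjusted p = 0.332) and Mybl1 of 0.65 (SE 0.35, limma-voom adjusted p = 0.463).

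Next, genes known as targets of E2F, DREAM and MuvB were read as a pair of lists, which overlap with sets of cell cycle genes already known to be lower in these libraries and are a description only. Of 31 G1/S targets, 30 were lower in each Prmt5sKO library than in any control and 1 overlapped, beside 23.6% lower among all genes tested. Their median log2 fold change was -1.26, and 28 reached an unadjusted limma-voom p under 0.05 with a lower level, beside 6.95% of all genes. The largest differences were in Cdt1 and Cdc6, which load the replicative helicase, and in Chaf1b, a histone chaperone of replication. Cdt1 was at 648 and 944 in controls against 170 and 160 in Prmt5sKO, at a log2 fold change of -2.23 (SE 0.32). Those of Cdc6 and Chaf1b were -1.94 (SE 0.27) and -1.91 (SE 0.25). The smallest were in Pcna, the sliding clamp, at -0.43 (SE 0.33), in Rfc3, a subunit of the clamp loader, at -0.44 (SE 0.22), and in Rrm1, a subunit of ribonucleotide reductase, at -0.53 (SE 0.22). Pcna was at 2592 and 2555 in controls against 2638 and 1377 in Prmt5sKO and so was lower only in the shallower one.

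Of 36 G2/M targets, 33 were lower in both Prmt5sKO libraries and 3 overlapped, beside 23.6% lower among all genes tested. Their median log2 fold change was -0.77, beside 0.02 over all genes. An unadjusted limma-voom p under 0.05 with a lower level was reached by 27, beside 6.95% of all genes. Cdca8 and Aurkb, which encode borealin and Aurora B of the chromosomal passenger complex, and Mki67, a marker of dividing cells, had the largest differences. Cdca8 was at 1083 and 1080 in controls against 271 and 332 in Prmt5sKO, at a log2 fold change of -1.86 (SE 0.24). Aurkb and Mki67 were at -1.39 (SE 0.22) and -1.32 (SE 0.23). The smallest differences were in Nusap1 and Hmmr, which bind spindle microtubules, at -0.22 (SE 0.24) and -0.25 (SE 0.24), and in Ube2c, an enzyme that marks mitotic proteins for breakdown, at -0.39 (SE 0.19). Nusap1 and Hmmr overlapped between the groups. None of these targets was called after adjustment in limma-voom. When each library was left out in turn, Cdt1 ranged from -2.53 to -1.96, Cdc6 from -2.15 to -1.70 and Chaf1b from -2.03 to -1.77. Cdca8 ranged from -1.99 to -1.70, Aurkb from -1.45 to -1.34 and Mki67 from -1.53 to -1.11. Mybl2 was lower than every gene of either list on the log2 scale, while Foxm1 lay near the median of the G1/S list and Lin9 and Lin54 near that of the G2/M list.

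**Figure D5:**
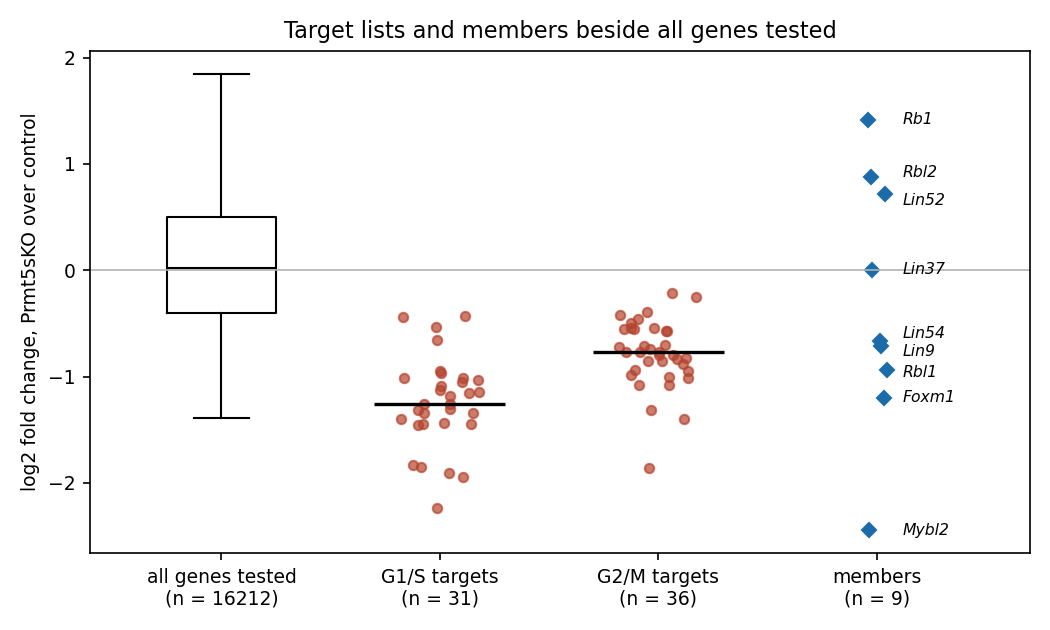
Log2 fold changes of Prmt5sKO over control for all 16212 genes tested (box from the 25th to the 75th percentile with the median, whiskers at the 5th and 95th percentiles), for the 31 G1/S and 36 G2/M targets (points, median as a line) and for the 9 genes (diamonds). Every target lies under 0, the medians are -1.26 and -0.77, and Mybl2 lies lower than any of them.

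The promoter windows of the targets differed in the motifs that they held. The 8-letter E2F site was in 10 of 29 windows of G1/S targets (34.5%) and in 1 of 31 windows of G2/M targets (3.23%), beside 2.26% of all windows. The CHR was in 3 of 29 (10.3%) and in 22 of 31 (71.0%), beside 17.9% of all. The E2F core was in 10 windows of either list. The lists were drawn from known targets of the complexes that bind these letters, so these shares describe the lists and are not independent of the choice. G2/M targets with a CHR had a median log2 fold change of -0.77 (21 genes) and those without of -0.57 (9 genes). G1/S targets with and without the 8-letter site had medians of -1.28 (10 genes) and -1.18 (15 genes). Differences between the groups with and without a site were small beside the range within either list.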

How the data were processed

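Libraries of ribosome-depleted RNA from cultured MuSC (2 control, 2 Prmt5sKO) were run on an Ion Torrent Proton sequencer. The authors trimmed reads with Reaper, aligned them to GRCm38 (mm10) with STAR 2.4.0a and tested the difference in DESeq2 1.62. Per the file headers, the signal values they deposited are group means of size-factor-normalized counts. The deposited log2 fold changes, standard errors, p-values and adjusted p-values are the authors' own comparison and were not used; 675 genes have no p. How reads with several positions and the strand were treated is not given in the sources used here.

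A group mean adds whole multiples of 1 step from each of 2 libraries, and whole reads per library were recovered for 100% of 20065 genes, a step tested on simulated data. Libraries were scaled by TMM (own code, trims of 30% and 5%), genes with a mean normalized count under 5 were left out, and groups were compared with limma-voom (limma 3.58.1, R 4.3.3), with Benjamini-Hochberg adjustment over 16212 genes and a threshold of 0.05. On simulated counts at a dispersion of 0.03, limma-voom called 152 of 200 changed genes and 13 unchanged genes among 16206. Counting error was not computed apart from the spread between libraries. Lin52 had 61 to 154 reads in a library and Lin37 had 157 to 344. For Myb the lowest library held 14 reads. Alternatives were other size factors, other filters on low values, limma-trend, leaving out each library, both pairings of libraries as a block, and another length for levels per kb. Exon lengths, positions and overlaps came from GENCODE M21, which held 19782 of the identifiers. Promoter windows came from RefSeq (GRCm38.p6), with entries for 25 of 31 G1/S and 30 of 36 G2/M targets and none for Rb1, Lin9 and Foxm1. Tables and figures were made in Python 3.11.15 with pandas 2.3.3 and matplotlib 3.10.9.

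The 9 genes and all lists were chosen by name from known functions, with earlier results of these data known. Named were all 9 genes, genes of lists of up to 12, and of longer lists the 3 largest and 3 smallest differences at a mean normalized count of at least 100, beside Prmt5, Xist and Myog as checks. The 3 genes most like Rb1 and Mybl2 were also named, as were genes whose exons overlap with theirs.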

Additional observations from a re-analysis of the deposited data

How the results depend on the processing

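The direction of every one of the 9 genes other than Lin37 was the same in all 11 alternatives. Lin37 was at -0.00028 on the log2 scale with median-of-ratios size factors and at -0.033 in limma-trend, and ranged from -0.37 to 0.32 when each library was left out. Under the same omissions Rbbp4 ranged from -0.58 to 0.18, E2f4 from -0.31 to 0.080, E2f5 from -0.026 to 0.86, Tfdp2 from -0.012 to 0.20, Dyrk1a from -0.24 to 0.31, Ccnd1 from -0.22 to 0.39, Ccnd3 from -0.58 to 0.82 and Pcna from -0.90 to 0.036. The number of genes called was 0 to 496, with 496 without the deeper and 99 without the shallower Prmt5sKO library, and the median of the G1/S targets was -1.32 to -1.10. Those fits test fewer libraries, and the cause of the higher counts was not tested. Scaling by library size alone moved the median of all genes from 0.02 to 0.13 and changed no call.

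With a replicate block, the deeper libraries paired gave 0 genes and the crossed pairing gave 346, among them 3 of the 9 genes. The columns carry no replicate numbers, so neither pairing comes from the labels. The crossed pairing put the libraries with high Xist together (8668 in control, 5655 in Prmt5sKO) and those with low Xist together (23.3 and 8.15). Whether the calls go with Xist was not tested. The differences within the groups correlated over 10305 genes at -0.36 in the first pairing. The value of 0.36 in the crossed pairing is the same correlation with its sign turned, and no separate result. The other settings (median-of-ratios size factors, no filter, a minimum mean of 20 and limma-trend) called 0 genes. With the length of the longest coding transcript, added after seeing the data, Rbl1 over Rbl2 in Prmt5sKO averaged 0.875 instead of 1.09. Of the 9 genes, Lin52 had the fewest reads.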

Other observations

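Beyond the lists, the E2F site was read across all genes tested that had a RefSeq promoter window. Of 501 genes with the 8-letter site, 39.9% were lower in each Prmt5sKO library than in any control and 16.4% were higher, against 22.8% and 27.4% of 10648 genes without it. Their median log2 fold changes were -0.17 and 0.06. With the 9 genes and both target lists left out, 488 genes with the site remained, of which 38.5% were lower, at a median of -0.15. For the 7-letter core, 28.7% of 2587 genes with it and 22.1% of 8562 without it were lower. For the CHR, 26.4% of 1581 genes with it and 23.2% of 9568 without it were lower. Genes are not independent replicates, base composition differs between promoters, and these shares were not tested.

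Over the 4 libraries, the profiles most like that of Rb1 among 10305 genes, by the distance between centred log2 values, were those of Gramd1b (0.146), Stk36 (0.188) and Tpd52l1 (0.200). Those most like Mybl2 were Fbn2 (0.215), a gene without a symbol, ENSMUSG00000062417 (0.245), and the histone gene Hist1h2ah (0.322), whose reads could be shared with near-identical copies. With 4 libraries such likeness reflects mainly the difference between the groups. Myog, a marker of differentiation, was at 1436 and 1189 in controls against 3707 and 19508 in Prmt5sKO, deeper library first. Between the Prmt5sKO libraries Rb1 was 1118 and 1423, Rbl1 520 and 391, Rbl2 581 and 470 and Mybl2 265 and 318.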
